A study of Drosophila melanogaster with 4 samples.

Results

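Short high-scoring H3K9ac clusters are regions enriched for acetylated lysine 9 of histone H3 on the fly autosomes that pass a limit on length and a limit on score. They were taken as pairs of clusters, 1 from each of 2 ChIP replicate lists, that overlapped each other and nothing else in the lists. The pairs lay on 2L, 2R, 3L or 3R. Both clusters were shorter than 3000 bp, and both had a deposited score at or above the 80th percentile of their own whole list. This gave 283 pairs among 5497 one-to-one pairs on these 4 arms (5.15%), out of 9104 clusters in the replicate 1 list and 10049 in the replicate 2 list. The pairs were selected on overlap, length and score in both lists, so their lengths and scores are given below as a description, and no test was made on them.

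The chromatin was that of head nuclei of Drosophila melanogaster, strain Oregon-R, genotype wild type. The labels give the stage as mixed adult, population cages as the source of the flies, and sieving as the way of collecting heads. There were 2 ChIP libraries, each with the input library of the same replicate number as background. All libraries share 1 strain, genotype and stage, so the design holds no contrast between conditions. Separate fly populations are not stated for the replicates, so their spread may be technical. Heads mix neurons and photoreceptors with glia, muscle and fat body, and a cluster in the mixture does not tell in which cells the mark lay. The depth of the libraries is unknown.

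H3K9ac is written in flies by complexes that contain the acetyltransferase Gcn5, is removed by histone deacetylases, and is recognised by bromodomain proteins. It is concentrated on the nucleosomes that flank the start sites of active genes. Coordinates below are those of FlyBase release 5. No gene was assigned to any cluster, because the gene table used here is that of release 6 and coordinates were not carried between releases.

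The high-scoring short clusters occupied a narrow band of lengths. Replicate 1 clusters of the 283 pairs measured 2158 to 2994 bp, with a median of 2589 bp. Replicate 2 clusters measured 2140 to 2988 bp, with a median of 2508 bp. Over all one-to-one pairs, which have no limit on length, the medians were 2642 bp in replicate 1 and 2728 bp in replicate 2. Short lower-scoring pairs, with both clusters under 3000 bp and both scores below the 80th percentile, had medians of 2052 and 2056 bp. The lists themselves began at 1301 bp, so the lower part of the permitted range was empty. The same was seen with no partner required, apart from 2 replicate 2 clusters of 1628 and 1716 bp described below. On the 4 arms, none of the 641 replicate 1 clusters from 1250 to below 1500 bp reached the 80th percentile. Of the 895 from 2000 to below 2250 bp, 8 did so (0.894%). The share was 16.7% from 2250 to below 2500 bp and 30.3% from 2500 to below 2750 bp. It was 29.0% from 2750 to below 3000 bp and 35.6% from 3000 to below 3250 bp. Replicate 2 gave 0% in the first of these ranges and 1.62%, 24.6%, 28.9%, 27.4% and 38.5% in the others. Median scores rose over the same interval, from 0.475 at 1750 to below 2000 bp to 0.779 at 2250 to below 2500 bp in replicate 1, and from 0.466 to 0.728 in replicate 2. The sources used here do not give how the caller sets cluster edges and scores, so a property of the chromatin and a property of the calling cannot be told apart in this relation.

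**Figure D1:**
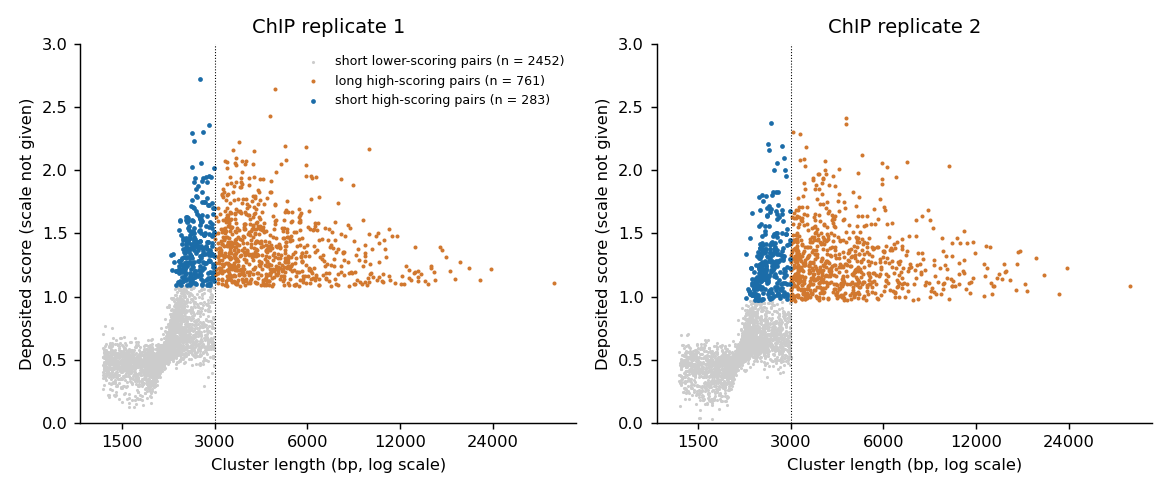
Deposited score against cluster length in base pairs (log scale) for each ChIP replicate, with 1 point per cluster of a one-to-one autosomal pair. Blue points are the 283 short high-scoring pairs, orange points the 761 long high-scoring pairs and grey points the 2452 short lower-scoring pairs, and the dotted line marks 3000 bp. The blue points begin at 2158 bp in replicate 1 and 2140 bp in replicate 2, well above the shortest grey points.

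The 3 shortest pairs by mean length lay on different arms. The shortest was 3R 23487345 to 23489502, with lengths of 2158 and 2145 bp in replicates 1 and 2 and scores of 1.33 and 1.34. The second was 2R 15016215 to 15018396, of 2182 and 2140 bp, with scores of 1.21 and 0.987. The third was 3L 1856319 to 1858524, of 2206 and 2196 bp, with scores of 1.27 and 1.04. All 3 had offsets of at most 24 bp between the replicates at either edge, and all 3 stood between 1715 and 4902 bp from the nearest other cluster.

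Few of the strong short clusters of 1 list were lost for want of a partner. Replicate 1 held 366 clusters on the 4 arms that met the limits on length and score, of which 357 had a one-to-one partner, 8 shared their partner with another cluster and 1 overlapped several. The last was 3L 15090390 to 15092767, with a score of 1.19. Replicate 2 held 438 such clusters, of which 416 had a one-to-one partner, 20 shared it and 2 had none. The pair without a partner were 2L 15676206 to 15677921 with a score of 0.974 and 2R 6906214 to 6907841 with 1.11. These 3 regions are named because of their small number, after their values were seen. The other losses came from the partner's own values. For replicate 1 clusters the partner measured 3000 bp or more in 12 cases and fell below the 80th percentile in 65, with 3 of them failing both. For replicate 2 clusters these numbers were 70, 77 and 14.

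The thresholds cut through continuous ranges. Just inside the length limit stood 3R 11797347 to 11800340, of 2994 and 2875 bp, and 3L 10473662 to 10476517, of 2856 and 2988 bp. Just outside it stood 2L 13285231 to 13288231, of 3001 and 2968 bp, and 3R 3731746 to 3734751, of 3006 and 2978 bp. The lowest score percentiles inside were 80.24 for 3L 12507257 to 12509760 and 80.27 for 2R 1193953 to 1196473, both set by replicate 2. Just outside were 2L 3712491 to 3715195, at 79.99 in replicate 2, and 2R 9855027 to 9857500, at 79.91 in replicate 1. A further 65 high-scoring pairs had 1 cluster below 3000 bp and 1 at or above it, and entered neither the short nor the long class.

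Scores were then set beside those of the 761 long high-scoring pairs, in which both clusters measured 3000 bp or more. The same cut on the score chose both classes, and the ranges of scores above it were close. Short pairs had scores of 1.09 to 2.72 in replicate 1 and 0.971 to 2.38 in replicate 2. Long pairs had scores of 1.08 to 2.65 and 0.967 to 2.41. The median score percentile of the short pairs was 90.97 in replicate 1 and 91.26 in replicate 2, against 90.71 and 91.59 for the long pairs. The order of the classes therefore turned between the replicates. Clusters in the top 10% of their list made up 55.5% and 58.3% of the short pairs and 54.0% and 59.3% of the long pairs. Clusters in the top 1% made up 6.01% of the short pairs in each replicate, and 5.91% and 6.31% of the long pairs.

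The short share differed little along the ranks of score. Ranked by the lower of the 2 score percentiles, short pairs made up 26.5% of the high-scoring pairs from the 80th to the 85th percentile (83 of 313, exact 95% interval 21.7 to 31.8). It was 72 of 288 pairs from the 85th to the 90th, and the share was 27.3% from the 90th to the 95th (72 of 264) and 23.4% from the 95th to the 99th (45 of 192). At or above the 99th percentile it was 21.2% (11 of 52, 11.1 to 34.7). The intervals overlapped throughout. High-scoring pairs of any length numbered 1109 (20.2% of all one-to-one pairs), and over all of them the short share was 25.5% (23.0 to 28.2). On the X, by the same limits, 76 of 335 high-scoring pairs were short, or 22.7% (18.3 to 27.6), an interval that overlaps that of the autosomes.

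The 10 strongest short pairs, ranked by the lower of their 2 percentiles, included 4 on 2L, 3 on 2R, 2 on 3R and 1 on 3L. The first was 2R 12456990 to 12459670, which had the highest score among the one-to-one pairs of the 4 arms in replicate 1, at 2.72, and scored 2.38 in replicate 2. Its replicate 2 cluster ran from 12457059 to 12459649. The second was 2L 19007636 to 19010163, the strongest short pair of 2L, with scores of 2.29 and 2.21. Both of its clusters measured 2528 bp and stood 11 bp apart at each end. These were followed by 2R 16150559 to 16153428, with 2.36 and 2.20, and 2R 10102438 to 10105000, with 2.23 and 2.16. The fifth was 2L 10407409 to 10410149, with 2.31 and 2.05. Replicate 1 gave the higher score in each of the first 5.

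The strongest short pair of 3R was 25990174 to 25993042, with scores of 1.96 and 2.10 in replicates 1 and 2. Next came 2L 13393203 to 13396014, with 1.94 and 2.00, and 3R 13622321 to 13624913, with 1.93 and 2.00. In these 3 the replicate 2 score was the higher. The strongest of 3L was 1667030 to 1669566, with 2.03 and 1.81, which had a neighbour 626 bp away in replicate 1 and 507 bp away in replicate 2. The last of the 10 was 2L 419011 to 421851, with 1.91 and 1.83. All 10 stood above the 99th percentile of both lists.

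Between the replicates, scores of the short pairs kept much of their order within the narrow range that the limit allows. Across the 283 pairs, Spearman's rho was 0.74 and Pearson's r 0.84, as a description of the lists. For the long pairs these were 0.81 and 0.88, and over all one-to-one pairs, with no limit on score, 0.88 and 0.92. Percentiles of the 2 clusters lay within 5 points in 219 short pairs (77.4%), and in 82.3% of the long pairs, against 37.9% of all one-to-one pairs. The limit itself narrows this difference, since both percentiles must lie in the upper 20%. The median absolute difference was 2.19 points. The deposited score was lower in replicate 2 in 235 short pairs (83.0%), against 60.6% of all one-to-one pairs. In the long pairs it was lower in 82.5%. Whether both lists use 1 scale is not given, so this describes the numbers as deposited. The score at the percentile limit was itself lower in replicate 2, at 0.967 against 1.08 in replicate 1. Ranks within the lists leaned the other way. In replicate 2 the percentile was higher in 156 short pairs and lower in 127, with a median shift of 0.26 points. For the long pairs these numbers were 446, 315 and 0.43.

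Ranks differed between the replicates by up to 12.6 points. In 2R 1193953 to 1196473 the score was 1.41 in replicate 1, at the 92.89 percentile, and 0.971 in replicate 2, at the 80.27 percentile. In 3R 18294326 to 18296621 it went the other way, from 1.19 at the 85.03 percentile to 1.55 at the 97.64 percentile. In 3R 14848277 to 14851174 it was 1.59 at the 96.62 percentile and 1.05 at the 84.57 percentile. The last pair also differed in length, with 2898 bp in replicate 1 and 2570 bp in replicate 2.

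The distribution over the arms was examined next. Short high-scoring pairs were found on each of the 4 arms, with 50 on 2L, 85 on 2R, 68 on 3L and 80 on 3R. This corresponds to 2.17, 4.02, 2.77 and 2.87 pairs per Mb. Density was thus highest on 2R and lowest on 2L, and the same order of these arms held within each list. Counting the clusters that met the limits in 1 list alone, 2R had 5.56 ± 0.635 per Mb (SD, n = 2 replicates) and 2L had 3.28 ± 0.522. The arm 3L had 3.99 ± 0.519 and 3R had 3.98 ± 0.456. In replicate 1 the values for 2R and 2L were 5.11 and 2.91 per Mb, and in replicate 2 they were 6.01 and 3.65. The arms 3L and 3R differed by less than the SDs, and their order turned between the lists.

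Part of the difference in density between 2R and 2L was shared by the long high-scoring pairs, which had 8.80 and 6.82 per Mb. All high-scoring pairs, the short ones included, had 13.6 per Mb on 2R and 9.65 per Mb on 2L. The short share of the high-scoring pairs was 29.5% on 2R (85 of 288, exact 95% interval 24.3 to 35.1) and 22.5% on 2L (50 of 222, 17.2 to 28.6). On 3L it was 25.1% and on 3R 24.4%. In the lists taken alone, the short share was 31.4% ± 1.40 on 2R (SD, n = 2) and 25.6% ± 1.93 on 2L. It was the highest on 2R and the lowest on 2L in both lists. The intervals of the paired shares overlapped, and they treat clusters as independent. Among the short pairs themselves, median scores were 1.39 and 1.30 on 2L, 1.38 and 1.22 on 2R, 1.28 and 1.22 on 3L, and 1.33 and 1.18 on 3R, for replicates 1 and 2. The pairs of 2L, the fewest, thus had the highest median in each replicate.

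**Figure D2:**
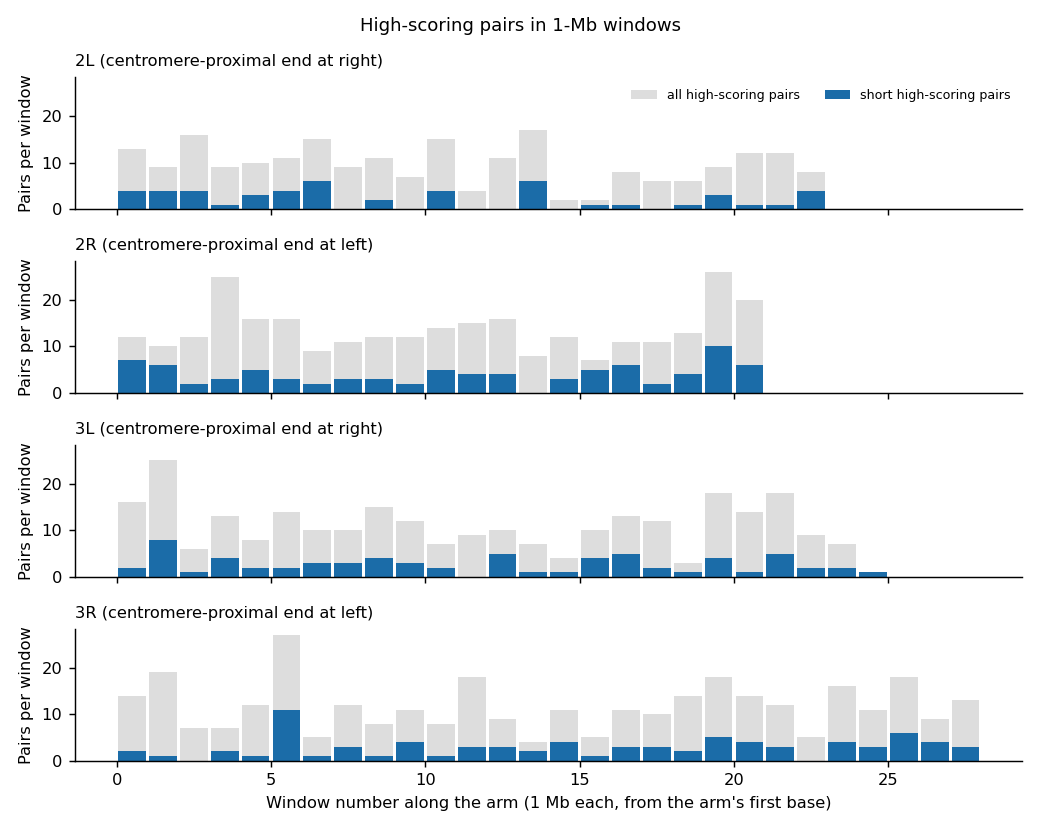
Number of high-scoring pairs (grey) and of short high-scoring pairs among them (blue) in consecutive windows of 1 Mb along 2L, 2R, 3L and 3R, counted by the midpoint of the replicate 1 cluster. The last bar of each arm is a partial window. The highest blue bar, of 11 pairs, lies on 3R. The first 2 windows of 2R are mostly blue, as are some farther along that arm.

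Along the arms, short pairs were spread thinly and widely. Of 95 full windows of 1 Mb, 85 held at least 1, 50 held 1 to 3 and 17 held 5 or more. The median was 3 per window. Each of the 10 windows without a short pair held high-scoring pairs of other lengths, and 6 of these windows lay on 2L. The densest window was 3R 5000001 to 6000000, with 11 short pairs among 27 high-scoring pairs, and the second was 2R 19000001 to 20000000, with 10 among 26. These windows also had many long pairs, 14 and 16. Across the windows, the numbers of short and long high-scoring pairs had a Spearman's rho of 0.26, given as a description since windows are not replicates. In the 61 windows with at least 10 high-scoring pairs, the short share ran from 0% to 60.0%, with a median of 27.3%.

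The centromere-proximal end of 2R had few clusters, but its strong pairs were mostly short. In the first 2 Mb of 2R, 57 one-to-one pairs were found, of which 22 were high-scoring and 13 of these were short (59.1%). Only 6 were long. At the matching end of the other arms, short pairs were 5 of 20 high-scoring pairs in the last 2 Mb of 2L, 4 of 13 in the last 2 Mb of 3L and 3 of 33 (9.09%) in the first 2 Mb of 3R. This stretch of 2R was singled out after its values were seen, and the counts are small. High short shares were not particular to it. Short pairs were 5 of 7 high-scoring pairs in 2R 15000001 to 16000000 and 6 of 11 in 2R 16000001 to 17000000. They were 4 of 8 in 2L 22000001 to 23000000. By 4 equal segments of the arms from the centromere-proximal end, the short share was 22.5%, 24.6%, 26.0% and 28.6% for the 4 arms together. That rise was not steady on 2R or 3L, where the second segment had 22.2% and 32.1% and the third 31.3% and 24.6%.

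Spacing was measured as the gap from a cluster to the nearest other cluster of the same list, whatever its length or score. The median gap of the short high-scoring pairs was 2297 ± 165 bp (SD, n = 2 replicates). It was 2168 ± 141 bp for the long high-scoring pairs and 2036 ± 206 bp for all one-to-one pairs. Within each list the short pairs had the larger median, with 2180 against 2068 bp in replicate 1 and 2414 against 2267 bp in replicate 2. The sign of this difference depended on the limits, and turned to -408 bp with a length limit of 2500 bp and to -227 bp with clusters under 500 bp apart merged. The gaps ran from close contact to wide isolation, with quartiles of 959 ± 125 bp and 4743 ± 224 bp.

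**Figure D3:**
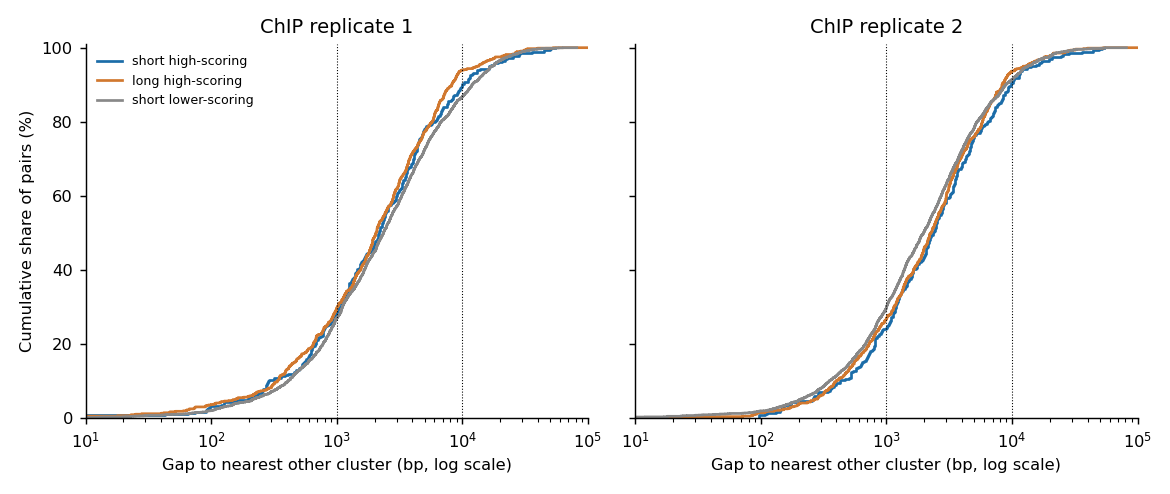
Cumulative share of pairs, in percent, against the gap to the nearest other cluster of the same list, in base pairs on a log scale, for each ChIP replicate. Lines stand for the short high-scoring, long high-scoring and short lower-scoring pairs, and dotted lines mark 1000 and 10000 bp. The 3 lines run close together, and at 10000 bp the short high-scoring line lies below the long high-scoring one in both replicates.

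At the extremes, 66 of the 283 short pairs (23.3%) had a neighbour within 1000 bp in both replicates, against 21.4% of all one-to-one pairs and 24.0% of the long pairs. In both replicates, 24 short pairs (8.48%, exact 95% interval 5.51 to 12.4) had no other cluster within 10000 bp, against 6.17% of all one-to-one pairs, which lies inside the interval, and 38 of the long pairs (4.99%). Within each list the shares without such a neighbour were 10.2% ± 0.500 for short and 6.31% ± 0.186 for long pairs (SD, n = 2). They were 11.0% ± 3.23 for short lower-scoring pairs and 10.4% and 7.39% of all one-to-one pairs in replicates 1 and 2. With a length limit of 2500 bp, the share of short pairs isolated in both lists was 3.37%. The pairs isolated in both lists lay on 3R (8), 3L (7), 2R (5) and 2L (4). In the 2 Mb at the centromere-proximal end lay 4 of the 5 on 2R and 2 of the 4 on 2L. It was 1 of the 7 on 3L and 0 of the 8 on 3R. That end of 2R was poor in clusters of any kind, with 57 of the 1308 one-to-one pairs of the arm.

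Ranked by the smaller of the 2 gaps, the most isolated short pair was 2L 22816663 to 22819359, near the centromere-proximal end of the arm. Its nearest neighbour stood 54379 bp away in replicate 1 and 54413 bp away in replicate 2, and its scores were 1.39 and 1.24. The next were 2R 73879 to 76504, with gaps of 50943 and 52289 bp and scores of 1.79 and 1.39, and 2R 558438 to 561354, with gaps of 49565 and 49699 bp and scores of 1.94 and 1.28. All 3 lay within the 2 Mb nearest to the centromere-proximal end. In both pairs on 2R the score was much lower in replicate 2, while the percentiles were at least 93.10.

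At the other end, pairs were ranked by the larger of their 2 gaps. The closest by this measure, 3L 13033995 to 13036566, had a neighbour 127 bp away in replicate 1 and 113 bp away in replicate 2. Next were 3R 19183650 to 19186318, with gaps of 75 and 143 bp, and 3R 19382495 to 19385000, with gaps of 66 and 145 bp. By the smaller gap alone the closest was 3R 9501043 to 9503823, with gaps of 10 and 148 bp, named after its values were seen. In the whole-series list, 3R 19382495 to 19385000 was part of a single cluster of 16735 bp with a score of 0.677. The other 2 ranked by the larger gap stayed clusters of their own there, of 2623 and 2687 bp. Clusters this close to a neighbour were thus kept apart in both replicate lists and joined in 1 of these 3 cases in the third list.

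The neighbours of short high-scoring pairs were often strong themselves. In each replicate list the nearest neighbour reached the 80th percentile of score in 37.1% of the short pairs, against 20.6% and 22.0% of all one-to-one pairs in replicates 1 and 2. For the long high-scoring pairs the share was 31.4% ± 2.42 (SD, n = 2). The median percentile of the neighbour was 69.0 ± 2.09 for short and 65.6 ± 0.397 for long pairs. For short lower-scoring pairs it was 44.5 ± 0.303. The median length of the neighbour was 2845 ± 117 bp for short and 2724 ± 166 bp for long high-scoring pairs. In each list it was longer for the short pairs, with 2927 against 2841 bp in replicate 1 and 2762 against 2606 bp in replicate 2.

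Along an arm, each short high-scoring pair was also set beside the next one. From one to the next the median gap was 214 kb, the quartiles were 58.0 and 493 kb, and the longest gap was 2452 kb. Of the 279 gaps, 22 were under 10 kb. In 20 cases consecutive short pairs were direct neighbours in both lists, with no other cluster between them, and these gaps ran from 210 bp to 30.1 kb in replicate 1. The closest were 2R 4806248 to 4808806 and 2R 4809017 to 4811643, with 210 bp between them in replicate 1 and 521 bp in replicate 2. The next were 3R 5584508 to 5586965 and 3R 5587222 to 5589736, with 256 and 524 bp. Runs of 3 occurred 2 times, both on 2R. One run comprised 2R 4981917 to 4984315, 4984587 to 4987324 and 4989877 to 4992195, and the other reached from 2R 1193953 to 1240241. These neighbouring pairs were chosen for their spacing after it was seen.

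The edges of short high-scoring pairs were placed closer together by the replicates than those of the other classes. The start of the cluster differed between the replicates by a median of 36 bp and the end by a median of 32 bp, against 67 and 65 bp in the long high-scoring pairs. Both edges lay within 250 bp of each other in 267 of the 283 short pairs (94.3%, exact 95% interval 91.0 to 96.7), against 57.6% of all one-to-one pairs. The share was 76.2% in the long high-scoring pairs (580 of 761, 73.0 to 79.2). Within 50 bp at both edges were 99 short pairs (35.0%), against 10.5% of all one-to-one pairs and 16.3% of the long pairs. Part of this follows from the rule, because 2 lengths below 3000 bp cannot differ by as much as 2 lengths without a limit. As a share of length, the offset per edge was alike in the classes, with a median of 1.80% for short and 1.87% for long pairs. Per pair, the Jaccard index (shared over total bases) had a median of 0.965 in the short and 0.963 in the long pairs.

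**Figure D4:**
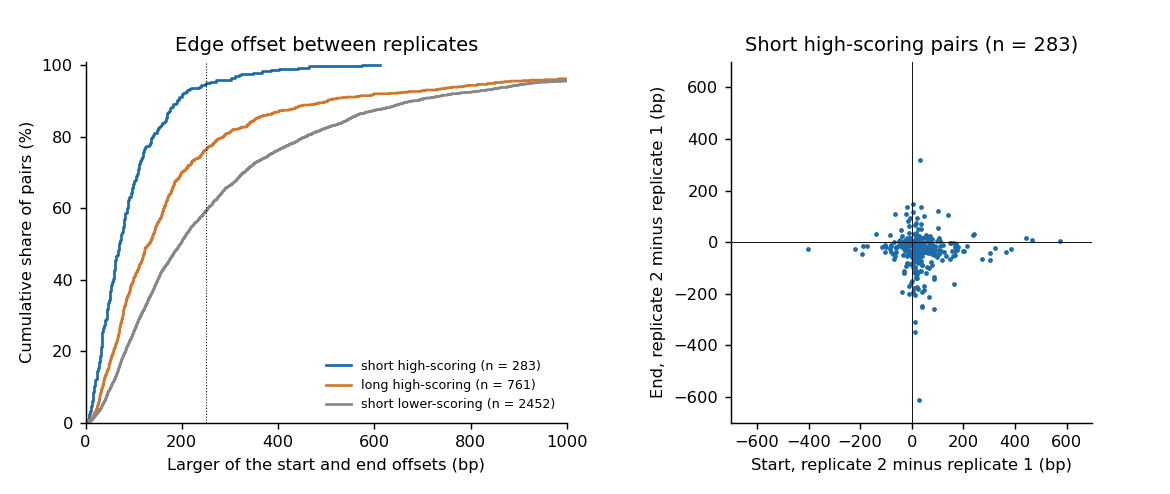
Left, cumulative share of pairs, in percent, against the larger of the start and end offsets between the replicates, in base pairs, for the short high-scoring, long high-scoring and short lower-scoring pairs; the dotted line marks 250 bp and the axis ends at 1000 bp. Right, end offset against start offset, replicate 2 minus replicate 1 in base pairs, with 1 point per short high-scoring pair. Most points lie at or near an axis, and the lower right area, where the replicate 2 cluster lies inside that of replicate 1, holds the most.

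Among short pairs, edge agreement went with the score. To hold length, short lower-scoring pairs were restricted to the range of the high-scoring ones, 2140 bp to below 3000 bp, which left 649. Both edges lay within 250 bp in 74.7% of these (485 of 649, exact 95% interval 71.2 to 78.0), below the 94.3% of the high-scoring pairs. The median offsets at the start and the end were both 80 bp. Their offset was a median of 3.77% of the length, against 1.80%, so that here the difference remained after scaling. All short pairs in the same range of lengths were also grouped by their lower percentile. This set includes pairs with only 1 score at or above the 80th percentile, which are not among the 649. The share within 250 bp was 59.2% where the lower percentile was below 40, 70.4% from 40 to 50 and 84.5% from 50 to 60. It was 91.3% from 60 to 70, 91.6% from 70 to 80, 92.3% from 80 to 90 and 96.9% at or above 90. Most of the rise thus lay below the 70th percentile, and the limit at the 80th did not mark a step. The selection on overlap and on both lengths bounds the offsets in each of these groups. Since clusters of a list are not replicates, no p-value was computed.

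Among high-scoring pairs of all lengths, the share with both edges within 250 bp was lower the longer the pair. It was 98.2% (109 of 111) at a mean length of 2000 to below 2500 bp and 88.3% (173 of 196) from 2500 to below 3000 bp. It was 82.0% from 3000 to below 4000 bp, 73.6% from 4000 to below 6000 bp and 61.6% from 6000 to below 10000 bp. At 10000 bp or more it was 51.0% (25 of 49, exact 95% interval 36.3 to 65.6). The median Jaccard index moved little over these ranges, from 0.967 in the first to 0.953 in the third and 0.980 in the last.

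**Figure D5:**
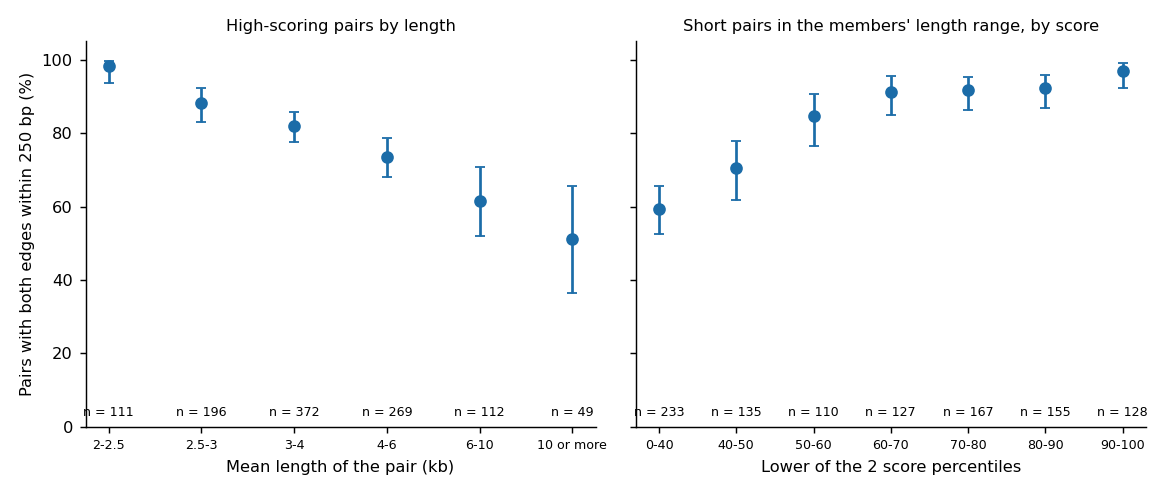
Share of pairs with both edges within 250 bp between the replicates, in percent, with exact 95% intervals that cover counting error only; the number of pairs stands under each point. Left, high-scoring pairs by mean length in kb, where the share falls from 98.2% to 51.0%; right, short pairs of 2140 bp to below 3000 bp by the lower of their 2 score percentiles, where it rises from 59.2% to 96.9%.

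The offsets had a direction. The replicate 2 cluster started later in 208 short pairs (73.5%) and ended earlier in 205 (72.4%). These shares were 55.1% and 54.8% of all one-to-one pairs, and 64.3% and 63.1% of the long pairs. Median offsets were 24 bp at the start and -20 bp at the end, against 31 and -28 bp in the long pairs. The replicate 2 cluster lay inside the replicate 1 cluster in 158 short pairs (55.8%), against 33.5% of all one-to-one pairs. The reverse held in 24 (8.48%), against 23.1%. In the long pairs these shares were 42.8% and 14.8%. The replicate 2 cluster was the shorter in 212 short pairs (74.9%), against 54.6% of all one-to-one pairs and 67.3% of the long pairs. Over all 283 short pairs the median length difference, replicate 2 minus replicate 1, was -60 bp. It was -68 bp in the long pairs and -30 bp in all one-to-one pairs. The midpoints stayed closer than the edges. They differed by a median of 29 bp in absolute terms in the short pairs and 58 bp in the long pairs, and the signed median was 3.5 bp. The midpoint offset is the mean of the 2 edge offsets, so its smaller size does not show a fixed centre. Strong short clusters were mostly slightly narrower in replicate 2. The sources used here do not give the depth of the libraries or the fragment lengths, and their part in this was not tested.

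In the 16 short pairs with an edge more than 250 bp off, the change was on 1 side. The other edge lay within 100 bp in all 16, and replicate 2 was the shorter in 14. The largest offset was in 3L 21438089 to 21441073, where the start moved by 29 bp and the end by -612 bp, so that the length went from 2985 to 2344 bp. In 2L 2877635 to 2880618 the start moved by 575 bp and the end by 3 bp, and the length went from 2984 to 2412 bp. In 2R 14053365 to 14056150 the start moved by 465 bp and the end by 9 bp, and the length went from 2786 to 2330 bp.

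The closest agreement was of a few bases at both ends. The pair 3R 17197802 to 17200215 differed by -6 bp at the start and -2 bp at the end, with scores of 1.30 and 1.17. The pair 2L 206513 to 208890 differed by 4 and -5 bp, with scores of 1.32 and 1.31. In 2L 18441690 to 18444119 the offsets were -8 and 2 bp, with scores of 1.61 and 1.76. None of the 283 pairs had both edges identical.

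The whole-series list was set beside the pairs last. It is not independent of the replicates, and the sources used here do not give how they were joined in it. Each of the 283 short pairs overlapped this list. For 270 of them (95.4%, exact 95% interval 92.3 to 97.5) a single whole-series cluster overlapped the pair and no further replicate cluster, against 86.6% of all one-to-one pairs. In the long pairs the share with such a counterpart was 93.7%. The counterpart spanned both clusters of the pair from end to end in 135 of the 270 short pairs and in 401 of 713 long pairs. The 270 counterparts of the short pairs measured 2167 to 4493 bp, with a median of 2661 bp, and 234 of them were below 3000 bp. All 270 were at or above the 80th percentile of score in the whole-series list, and their median percentile was 93.6. Among pairs with such a counterpart, the share at or above that percentile was 99.7% for the long pairs and 34.3% for all one-to-one pairs. The median percentile for the long pairs was 93.8. Both high-scoring classes were chosen on score in the replicate lists. The whole-series score lay between the 2 replicate scores in 211 of the 270, below both in 59 and above both in 0. For the 713 long pairs these numbers were 507, 206 and 0. They were 2426, 2320 and 12 for the 4758 one-to-one pairs with such a counterpart. In the short pairs the whole-series score was a median of 0.987 of the mean of the replicate scores. These comparisons set values side by side and assume that the lists use 1 scale.

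The other 13 short pairs had no counterpart of this kind. For 12 of them the whole-series cluster held further replicate clusters and measured 3499 to 16735 bp, with a median of 5738 bp. In 11 of these 12 a neighbour stood within 1000 bp in at least 1 replicate, and in 3 the whole-series score was below the 80th percentile. The last, 2R 10657636 to 10660484, overlapped 2 whole-series clusters, 2R 10651768 to 10657648 with a score of 0.701 and 2R 10657650 to 10660540 with 1.14, which stand 1 bp apart. The first of these reached the first bases of the replicate 1 cluster and none of the replicate 2 cluster, which starts at 10657876, and the second held nearly all of the pair. It is named because it was the only such case.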

How the data were processed

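Alignment used Bowtie 0.12.7, per the submitters' processing notes. The authors deposited 3 cluster lists, 1 for each of 2 ChIP replicates and 1 for the whole series, with positions in bp and 1 score per cluster. Per the file headers, positions refer to FlyBase release 5. The sources used here do not give the caller, its thresholds, the scale of the score or the read depth. Exact Clopper-Pearson 95% intervals therefore cover counting error only and take clusters to be independent.

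Lists were read as deposited, without the 1 region named as depleted in the whole-series list. Clusters overlapped when they shared at least 1 bp. Percentiles are ranks within a whole list. The pairs, classes, named regions and alternatives were chosen with earlier results of these data known. Bins of length and score and the ends of 2 Mb were added after the lists were seen. By rule, the named regions were the 10 strongest pairs, the strongest of each arm, the 3 at either extreme of length (shortest only), edge offset, spacing and change of rank (largest only), the 2 nearest each limit on both sides and the 2 densest windows. No p-value was computed, since 1 group of 2 replicates allows no test. The code was run on simulated data and recovered 474 of 474 pairs in the first of 5 draws of 8025 clusters. Each simulated cluster had exactly 1 partner by construction, and the expected pairs were set by the same limits. Shared or several partners, as in the deposited lists, were thus not exercised. Start sites, gene lists and sequences were not used, since the files' release was not at hand as genome or annotation. The tools were numpy 2.4.6, scipy 1.17.1, pandas 2.3.3 and matplotlib 3.10.9 under Python 3.11.15.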

Additional observations from a re-analysis of the deposited data

How the results depend on the processing

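The number of short pairs was set by the limits. It was 89 with a length limit of 2500 bp, 497 with 3500 bp, 455 at the 70th and 128 at the 90th percentile of score, and 450 in the whole-series list alone, and ranged from 366 to 438 with 1 replicate list alone. Short pairs were 8.03% of the high-scoring ones at 2500 bp and 44.8% at 3500 bp by construction, and 27.0% to 29.2% in 1 list alone. The share on 2R lay between 27.6% and 32.8% over all 10 alternatives. Both edges lay within 250 bp in 100.0% at 2500 bp and 96.9% at the 90th percentile, and the excess over long pairs was 21.9 points at 2500 bp and 23.1 points with a reciprocal overlap of 50%, against 18.1 points. The median gap was 1860 bp at 2500 bp, 2101 bp at the 70th and 2593 bp at the 90th percentile, 2663 bp with clusters under 500 bp apart merged and 1867 bp in the whole-series list. Its difference from long pairs was 129.5 bp, and became -407.5 bp at 2500 bp, -77.25 bp at 3500 bp, -8.5 bp at the 70th and 324.5 bp at the 90th percentile, 224 bp with the reciprocal overlap, -227 bp with merging, 194 bp in the whole-series list and 177 to 473 bp in 1 list alone. The median score percentile of short minus long pairs was -0.03, and became -2.20 at 2500 bp, 0.59 at 3500 bp, -0.99 at the 70th percentile, 0.51 with merging, -1.44 in the whole-series list and -0.59 to -0.20 in 1 list alone. A whole-series cluster of their own was held by 92.0% to 93.4% in 1 list alone. The cause of these changes was not tested. Edge agreement has no value with 1 list alone. No paired analysis was possible because inputs have no list of their own and served as background for calling. With depth unknown, differences of width or number between the replicates cannot be set against it.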
